A study of Rattus norvegicus with 9 samples.

Results

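Proline tRNA fragments are short RNAs cut from the nuclear tRNAs that carry proline to the ribosome. They were taken from the deposited table as every row whose host was tRNA-Pro-AGG, tRNA-Pro-CGG or tRNA-Pro-TGG, named for the anticodons of the tRNAs. These 24 rows held 8 distinct sequences of the 192 distinct tRNA-derived fragments (tRFs) in the table, and all 8 were listed under all 3 hosts with identical counts. The tRFs were measured by small RNA sequencing of pancreatic islets from 22-day-old male Sprague Dawley rats. In the LP group (4 rats) the mothers had eaten a low-protein diet with 5.3% protein through most of gestation and through lactation, and in the CD group (5 rats) a chow diet with 16.8% protein. For the low-protein diet the sample labels give 17% carbohydrate and 77.7% fat, while the methods of the study give these 2 shares the other way round. For the chow diet the labels give 17.4% carbohydrate and 65.8% fat. The study used these offspring as a diabetes-prone model and looked for tRFs that differ in their islets. The table holds tRNA fragments only, so the identity of the islets could not be checked against marker genes. Islets contain several endocrine cell types, and a change in the number of cells of a type and a change in RNA per cell cannot be told apart here.

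A mature tRNA folds into an acceptor stem, a D arm, an anticodon arm, a variable loop and a T arm, and ends in the letters CCA, to which the amino acid is attached. Enzymes such as angiogenin and Dicer cut tRNAs into fragments that are classed by the part of the tRNA they hold, among them 3' fragments that reach the CCA end and internal fragments that do not. The T loop carries N1-methyladenosine in most tRNAs, a modification that halts reverse transcription, and the RNA had been treated to remove it before the libraries were made.

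All 8 sequences lay within the longest of them, and they are shown here because the length ladder is the main structure of the family. Each tRF is named by its length in nucleotides (nt), and capitals mark the 20-nt stretch found in all 8.
tRNA-Pro 39: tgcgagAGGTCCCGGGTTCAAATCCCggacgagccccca
tRNA-Pro 38: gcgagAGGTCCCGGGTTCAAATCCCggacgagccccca
tRNA-Pro 37: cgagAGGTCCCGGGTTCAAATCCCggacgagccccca
tRNA-Pro 35: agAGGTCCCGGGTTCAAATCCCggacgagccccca
tRNA-Pro 34: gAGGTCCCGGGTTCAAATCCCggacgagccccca
tRNA-Pro 33: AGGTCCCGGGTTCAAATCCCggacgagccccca
tRNA-Pro 24: gAGGTCCCGGGTTCAAATCCCgga
tRNA-Pro 21: gAGGTCCCGGGTTCAAATCCC

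The family had a ragged 5' end and a mostly fixed 3' end. Of the 8 tRFs, 6 ended in CCA, the end of the mature tRNA, and these were 33, 34, 35, 37, 38 and 39 nt long. A ladder member of 36 nt was not among the rows, which says nothing of its level, since the table lists only tRFs that the authors had called as changed. The other 2, tRNA-Pro 21 and tRNA-Pro 24, ended before the CCA and began at the same base as tRNA-Pro 34. The 8 tRFs thus had 6 different first bases, and 3 of them shared 1.

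A search of the longest tRF for a 5-base stem closed around a 7-base loop found 1 such hairpin, the T arm, at bases 12 to 28, with the stem strand CCGGG and the loop TTCAAAT. All 8 tRFs held the whole loop, and 7 held the whole arm. tRNA-Pro 21 held 15 of its 17 bases, and tRNA-Pro 24 ended 1 base past it. Before the arm stood 5 bases in tRNA-Pro 33, the region of the variable loop, and up to 11 in tRNA-Pro 39, which reach into the 3' side of the anticodon arm. None of the 8 holds a base that separates the 3 hosts. The letters GGTTCNA (N is any base, read on the tRF strand), part of the T arm of many tRNAs, were in all 8 and in 95 of all 192 tRFs (49.5%). The loop letters TTCAAAT were in only 1 tRF of another host. No other tRF of the table shared a run of 12 bases with tRNA-Pro 39, so none is an overlapping piece of the same stretch under another host. The GC content of the 8 ran from 61.9% to 68.4%.

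**Figure D1:**
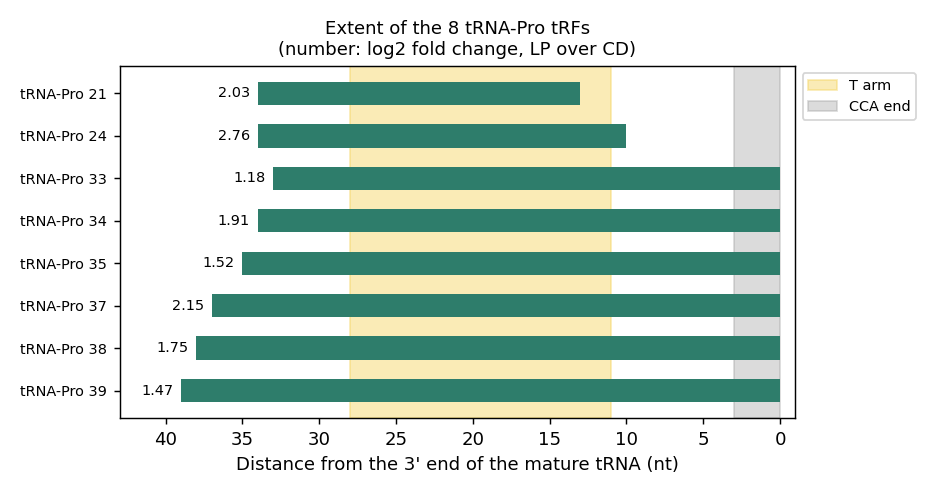
Extent of the 8 tRNA-Pro tRFs, drawn to scale as the distance in nt from the 3' end of the mature tRNA, with the T arm and the CCA end shaded. The number beside each bar is the log2 fold change, LP over CD, which was lowest for tRNA-Pro 33 (1.18) and highest for tRNA-Pro 24 (2.76).

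All 8 tRNA-Pro tRFs were higher in LP islets than in CD islets, by 2.27-fold to 6.76-fold in the fit. The log2 fold changes ran from 1.18 to 2.76 with a median of 1.83, where the median over all 181 tRFs tested was -1.49. Over the 82 tested tRFs of 25 to 40 nt, a range that holds 6 of the 8, the median was 1.80. Levels are given as normalized read counts, in which each library's deposited count is scaled by the size factor the authors used for it. By edgeR's quasi-likelihood test fitted to the whole table, with Benjamini-Hochberg adjustment, all 8 were past 2-fold at adjusted p-values of 0.00178 to 0.00684. Of all tRFs tested, 75 were called higher in the same way (41.4%). Every row of the table, the 8 included, had been selected by the authors as changed in these same 9 samples. The test therefore adds no independent evidence of a change, and the sizes tend to be too large.

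In each of the 8 tRFs, every LP sample was above every CD sample, which held for 55 of the 192 tRFs of the table (28.6%). In another 92 of the 192, every LP sample was below every CD sample. Of the 83 tRFs of 25 to 40 nt, which include 6 of the 8, every LP sample was above every CD sample in 47. The raw counts gave the same separation for all 8 without any scaling, against 60 of the 192 tRFs (31.2%). This was so although the table's counts summed to 12556 to 40166 per LP sample and to 26166 to 34775 per CD sample, and the size factors ran from 0.730 to 1.80 in LP and from 0.625 to 1.20 in CD. Since all rows had been selected as changed in these same samples, the separation is no independent evidence of a change either.

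The largest rise was that of tRNA-Pro 24, an internal fragment that stops just past the T arm. It had 34, 42, 49 and 52 raw counts in LP 1 to LP 4, against 1, 6, 8, 3 and 8 in CD 1 to CD 5. Scaled, these were 46.6, 41.9, 33.7 and 28.9 normalized read counts in LP islets, against 1.60, 6.60, 6.65, 3.24 and 8.26 in CD islets. The lowest LP sample stood well clear of the highest CD sample, and all CD values rested on raw counts of 8 or fewer. The log2 fold change was 2.76 ± 0.43 (SE, edgeR adjusted p = 0.00178), rank 2 of the 181 tRFs tested.

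tRNA-Pro 21, the shortest member, begins at the same base and ends within the T arm. It averaged 33.8 ± 5.93 normalized read counts in LP islets (SD, n = 4) and 7.80 ± 5.77 in CD islets (SD, n = 5). In raw counts it had 29, 37, 47 and 47 in LP 1 to LP 4, against 2, 7, 20, 2 and 9 in CD 1 to CD 5. CD 3 was the highest CD sample, and its distance to the lowest LP sample was the closest, at 16.6 against 26.1 normalized read counts. The log2 fold change was 2.03 ± 0.48 (SE), and 2.53 without CD 3.

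tRNA-Pro 34 reaches the CCA end from the same first base as both short fragments. It had 75.4, 70.8, 49.6 and 46.2 normalized read counts in LP 1 to LP 4, against 12.8, 13.2, 17.5, 15.1 and 20.7 in CD 1 to CD 5. The CD samples lay close together, and the log2 fold change was 1.91 ± 0.38 (SE). tRNA-Pro 33, which lacks only the first base of tRNA-Pro 34, was the most abundant member and ranked first in all 9 samples by raw count. It had 103, 71.8, 105 and 79.5 normalized read counts in LP islets, against 48.0, 35.2, 49.9, 28.1 and 36.2 in CD islets. Its log2 fold change, 1.18 ± 0.37 (SE, edgeR adjusted p = 0.00684), was the smallest of the family and rank 75 of 181.

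The members that start further upstream, in the 3' side of the anticodon arm, rose by intermediate amounts. tRNA-Pro 39, the longest, averaged 60.0 ± 19.9 normalized read counts in LP islets and 21.5 ± 4.44 in CD islets (SD, n = 4 and 5), a log2 fold change of 1.47 ± 0.39 (SE). In raw counts it had 64, 42, 73 and 108 in LP 1 to LP 4, against 15, 13, 27, 24 and 20 in CD 1 to CD 5. Scaled, it was highest in LP 1, at 87.7.

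tRNA-Pro 38 averaged 42.7 ± 13.9 normalized read counts in LP islets and 12.6 ± 6.86 in CD islets, a log2 fold change of 1.75 ± 0.47 (SE). tRNA-Pro 37 averaged 39.2 ± 11.7 in LP islets and 8.76 ± 4.02 in CD islets, a log2 fold change of 2.15 ± 0.45 (SE). tRNA-Pro 35 averaged 37.9 ± 8.92 in LP islets and 12.8 ± 6.87 in CD islets, a log2 fold change of 1.52 ± 0.42 (SE). For these 3 the gap between the groups was narrower than for tRNA-Pro 24 and tRNA-Pro 34. The lowest LP sample had 26.2, 26.9 and 31.7 normalized read counts for tRNA-Pro 38, tRNA-Pro 37 and tRNA-Pro 35, against 20.8, 12.8 and 24.9 in the highest CD sample.

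**Figure D2:**
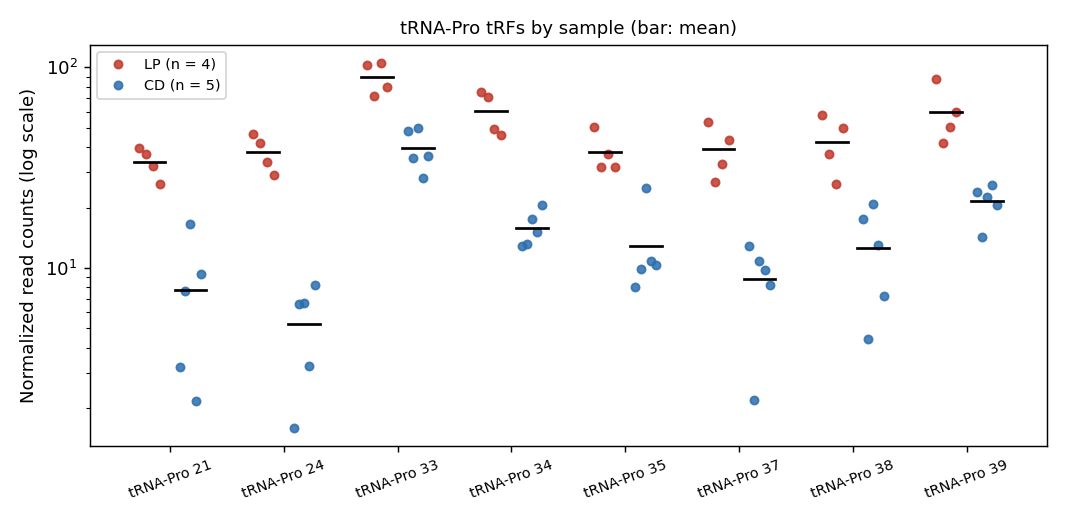
Normalized read counts of the 8 tRNA-Pro tRFs on a log axis, with a point for each sample and a bar for the mean, LP (n = 4) left of CD (n = 5). The groups overlap for none of the 8, and the lowest value is the 1.60 of tRNA-Pro 24 in CD 1.

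Summed per sample, the 8 tRFs came to 514, 359, 368 and 366 normalized read counts in LP 1 to LP 4, against 128, 93.6, 170, 108 and 121 in CD 1 to CD 5. The means were 402 ± 75.0 in LP islets and 124 ± 28.7 in CD islets (SD, n = 4 and 5). LP 2 to LP 4 lay close together, and LP 1 stood above them. The mean difference in log2 level was 1.71, and it was 1.58 without LP 1. The exact permutation test gave the smallest two-sided p that 4 and 5 samples allow, 0.0159, and since each tRF in the sum had been selected as changed, this too is no independent evidence.

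The size of the rise depended on the scaling of the libraries, and its direction did not. With TMM over the table, the mean log2 difference of the sum was 2.35, the log2 fold changes of the 8 ran from 1.89 to 3.44, and the median over all tRFs tested was -0.69. Relative to that median, the family's median stood 3.21 log2 units higher with TMM and 3.32 higher with the authors' size factors. The median over the table rests on rows selected as changed in either direction, so these distances describe the selected rows only.

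**Figure D3:**
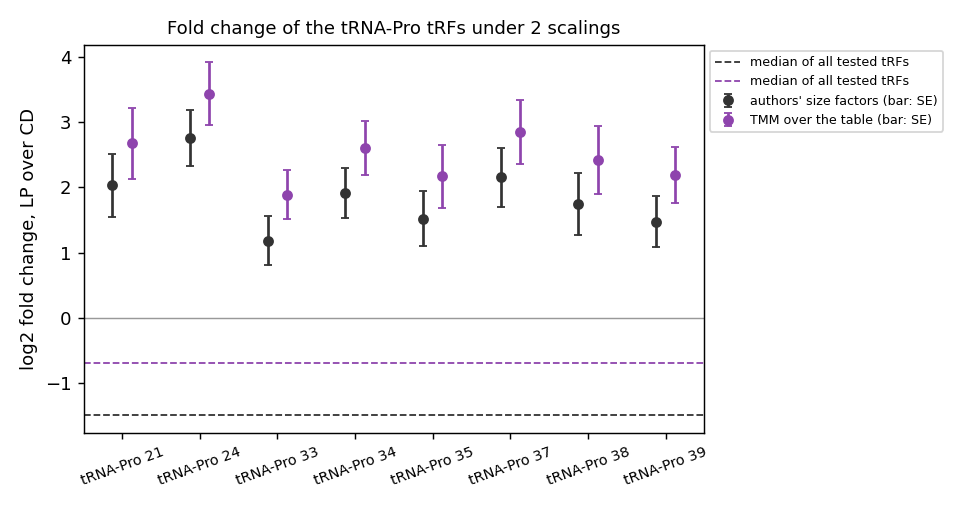
Log2 fold change, LP over CD, of each tRNA-Pro tRF with its standard error, under the authors' size factors and under TMM over the table. Dashed lines give the median of all tRFs tested, -1.49 and -0.69, and all 8 tRFs lie above 0 under both scalings.

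Whether the members rose in proportion was tested on their shares of the summed tRNA-Pro raw counts, which do not depend on scaling. tRNA-Pro 24 made up 9.45% ± 1.58 of them in LP islets (7.90% to 11.7%) and 4.41% ± 2.51 in CD islets (1.25% to 7.06%; SD, n = 4 and 5), with no overlap between the groups. tRNA-Pro 33 went the other way, at 22.6% ± 4.12 in LP islets and 32.1% ± 5.22 in CD islets, with overlapping ranges. Adjusted over the 8 shares compared, neither passed (exact permutation test, two-sided, p = 0.0159 and 0.0317, adjusted p = 0.127 for both). The other 6 shares differed by -2.97 to 2.77 percentage points, with adjusted p-values of 0.339 to 0.762 in the same exact permutation test. With 4 and 5 samples, a single share that separated the groups completely could not go below an adjusted p of 0.127, so these tests do not show whether the ladder rose evenly.

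The 2 fragments that end before the CCA took a larger share together in LP islets, a grouping chosen after the values were seen. They made up 16.8%, 21.9%, 17.98% and 15.0% of the tRNA-Pro counts in LP 1 to LP 4, against 3.75%, 15.3%, 13.7%, 5% and 14.5% in CD 1 to CD 5. The ranges overlapped slightly, and the CD samples fell into 2 low and 3 higher values. The means differed by 7.48 percentage points (exact permutation test, two-sided, p = 0.0317), a difference that no longer passed without any of LP 1, LP 2, LP 3, CD 1, CD 3, CD 4 or CD 5 (5.80 to 8.50 points, exact permutation p = 0.0571 to 0.0714). The low shares of CD 1 and CD 4 rested on 3 and 5 raw counts.

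Among the 3 tRFs with the same first base, tRNA-Pro 21 and tRNA-Pro 24 held 52.7% to 57.1% of the counts in LP islets and 26.3% to 57.1% in CD islets. The difference of 12.7 percentage points did not pass, at p = 0.127 in the exact permutation test. Leaving out each sample in turn gave 8.81 points (without CD 4) to 16.5 points (without CD 3), and it passed without CD 3 alone (exact permutation p = 0.0286, against 0.143 to 0.250 without each of the others). The read-weighted mean length of the family was 33.3 ± 0.575 nt in LP islets and 34.03 ± 1.02 nt in CD islets (SD, n = 4 and 5). The difference of -0.77 nt was within the spread of the samples (p = 0.286 by the exact permutation test).

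**Figure D4:**
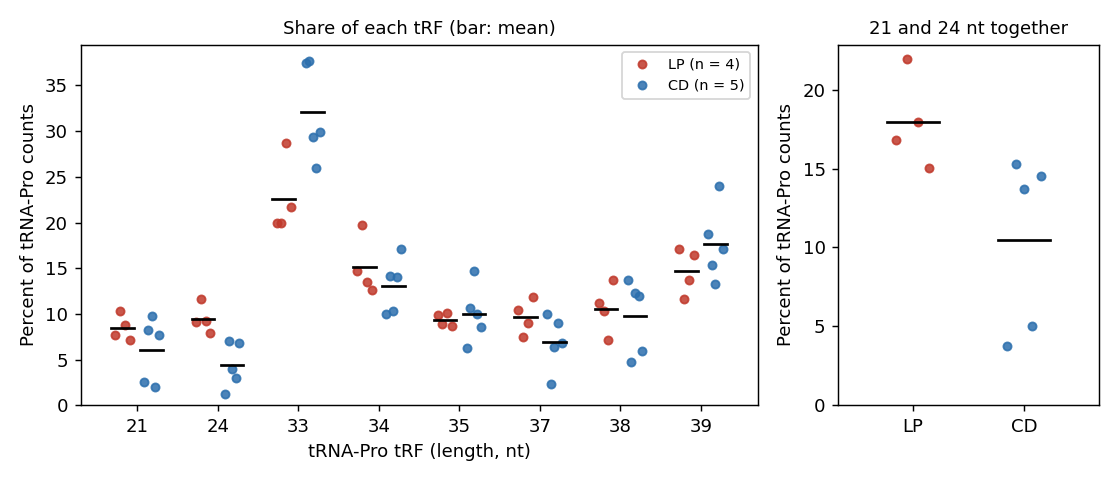
Percent of the tRNA-Pro raw counts of a sample held by each tRF (left) and by the 21-nt and 24-nt tRFs together (right), with a point for each sample and a bar for the mean, LP (n = 4) left of CD (n = 5). The groups do not overlap for the 24-nt tRF alone among the 8, and the 33-nt tRF has the highest share in both groups.

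The tRNA-Glu and tRNA-Asp families of the table were set beside this one, since most of their tRFs also rose. By the same edgeR calls, 8 of 8 tRNA-Pro tRFs were higher, 13 of 14 tRNA-Glu tRFs were higher and 1 lower, and 14 of 18 tested tRNA-Asp tRFs were higher and 4 lower. Their median log2 fold changes were close, at 1.83 for tRNA-Pro, 1.82 for tRNA-Glu and 1.80 for tRNA-Asp. The listed tRFs of the families differed in their 3' ends, since 6 of 8 tRNA-Pro tRFs ended in CCA and none of the 14 tRNA-Glu and 20 tRNA-Asp tRFs did. Only tRFs called as changed are listed, so whether islets hold CCA-ended tRNA-Glu or tRNA-Asp fragments is not shown.

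The log2 ratio of summed tRNA-Pro to summed tRNA-Glu counts was -1.94 ± 0.26 in LP islets and -1.83 ± 1.03 in CD islets (SD, n = 4 and 5), with no detectable difference (exact permutation test, adjusted p = 0.905 over 2 families). The same ratio to tRNA-Asp was -2.85 ± 0.49 in LP islets and -5.54 ± 1.49 in CD islets, a difference of 2.69 that did not pass after adjustment (exact permutation test, p = 0.0317, adjusted p = 0.0635). In that ratio CD 3, at -3.27, lay within the range of the LP samples, -3.52 to -2.46. The difference of 2.69 was larger than the mean log2 rise of the tRNA-Pro sum itself, which was 1.71 with the authors' size factors. That rise was 2.35 with TMM, 2.51 with DESeq2 size factors from the table and 2.61 as a percentage of the table's counts. In mean log2 level, the summed tRNA-Asp tRFs were therefore lower in LP islets, although most tRNA-Asp tRFs rose. The size of that difference depended on the scaling and was small under the last 3 scalings. The calls and medians above weigh each tRF alike, whatever its read count. Whether the summed tRNA-Asp level differs between the groups was not tested.

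By length, the 6 CCA-ended members belonged to a class that mostly rose, and the 2 short ones to a class that mostly fell. Of all tRFs of 25 to 40 nt, the 6 members included, 65 of 82 tested were called higher and 17 lower. Their median log2 fold change was 1.80, and the 6 members among them ran from 1.18 for tRNA-Pro 33 to 2.15 for tRNA-Pro 37. Of the other CCA-ended tRFs of 25 to 40 nt, 10 of 15 tested were called higher and 5 lower, with a median log2 fold change of 1.57. Of the other tRFs of 16 to 24 nt, 7 of 66 tested were higher and 55 lower, with a median of -1.72, and among those without a CCA end 6 of 19 were higher and 13 lower. tRNA-Pro 24, at 2.76, lay above the highest of these other short tRFs, at 2.22, and tRNA-Pro 21, at 2.03, below it. These counts describe selected rows, and whether the family differs from its length class was not tested.

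The 5 tRFs of other hosts whose levels were most like the tRNA-Pro sum were found over the 9 samples by the root-mean-square difference of log2 profiles centred on their means. This difference was 0.27 for tRNA-Ser-GCT 35, 0.35 for tRNA-Glu-CTC/tRNA-Glu-TTC 24, 0.41 for tRNA-His-GTG 31b, 0.41 for tRNA-Ala-AGC 39b and 0.42 for tRNA-Gly-CCC 36. Within the family it was 0.29 to 0.85, with tRNA-Pro 34 nearest to the sum and tRNA-Pro 24 farthest from it, although each member is itself a part of the sum. tRNA-Ser-GCT 35, a CCA-ended tRF, had 211, 127, 115 and 136 normalized read counts in LP 1 to LP 4, against 56.01, 51.7, 60.7, 51.8 and 65.1 in CD 1 to CD 5. Like the tRNA-Pro sum, it was highest in LP 1. All 9 libraries and their size factors are shared by these profiles.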

How the data were processed

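Small RNA libraries of islets of 4 LP and 5 CD rats had been made by the authors after removal of blocking ends and of base methylations. The authors annotated tRFs with the tRNA collections GtRNAdb and mitotRNAdb, required at least 2 reads in individual samples, and name DESeq2 among their tools. The submitters' processing notes name FastQC. Any aligner, genome build or counting of molecular tags was not given in the sources used here.

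Across 255 rows, the deposited table gives raw counts per tRF and host and a second set of columns that the authors headed as normalized counts. These deposited log2 values are a variance-stabilising transformation of the scaled counts. Its fit (largest residual 5.72e-05) gave the authors' size factors. The authors' fold change, adjusted p-value and direction columns were not used.

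Sequences were kept once, which left 192 tRFs. edgeR 4.0.16 (R 4.3.3), with a minimum count of 10 that left 181, was fitted to all, with calls past 2-fold at an adjusted p of 0.05. A standard error is the size of the fitted log2 fold change over the root of its F statistic. Per-sample sums, shares, ratios and lengths were compared with two-sided exact permutation tests (scipy 1.17.1). Fits were tested on simulated data. The text names every tRNA-Pro tRF and the 5 other tRFs nearest in profile (pseudocount 0.5). Members, lists and tests were chosen with earlier results of these data known. Alternatives were TMM, DESeq2 1.42.0 with either set of size factors, no filter, a replicate block and leaving out each sample. Each sample is listed as 1 rat, with no word on shared litters, so that p-values cover only the spread of these samples. No 2 samples of a group agreed within sampling noise (chi-square over its degrees of freedom at least 11.0).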

Additional observations from a re-analysis of the deposited data

Results flagged for a closer look

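Levels, shares, ratios and lengths were searched in each group for a sample far from the others, 44 sets of values in all, and 3 were found, where chance gives about 2.2. CD 3 was highest for tRNA-Pro 35, at 4.67 on the log2 scale of normalized read counts plus 0.5, against 3.09 to 3.50 in the other CD samples. This value lay in the direction of LP, and the log2 fold change of tRNA-Pro 35 was 1.93 without CD 3. CD 2 was lowest for tRNA-Pro 37, at 1.43 on that scale, against 3.13 to 3.73 in the other CD samples, where CD 2 had 2 raw counts. LP 1 was highest for the summed tRNA-Pro level, at 9.01 on the log2 scale, against 8.49 to 8.52 in the other LP samples.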

How the results depend on the processing

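All 8 tRNA-Pro tRFs stayed higher past 2-fold at an adjusted p of 0.05 under TMM, DESeq2 with either set of size factors, no filter, the replicate block and without each sample, with log2 fold changes of 1.08 to 3.57. In edgeR (181 tRFs), the table's median log2 fold change was -0.69 with TMM and -1.49 with the authors' factors, with 56 and 102 calls of lower tRFs. In DESeq2 (192 tRFs), it was -0.72 with factors computed on the table and -1.56 with the authors', with 61 and 112 such calls. Same-numbered LP and CD samples did not deviate together (correlations of -0.40 to 0.10 over the table). With 4 pairs, and rows selected as changed, these correlations cannot show whether the numbers pair the rats. As a replicate block, the 4 shared numbers gave a mean log2 difference of 1.71 for the sum, at p = 0.125 in an exact sign-flip permutation test, the smallest that 4 pairs allow. Without each sample in turn, the log2 ratio difference to tRNA-Glu ran from -0.45 to 0.21 and that to tRNA-Asp from 2.35 to 3.26. The share ending before the CCA differed by 5.80 to 8.69 percentage points and the share of tRNA-Pro 21 and 24 within the common start by 8.81 to 16.5. The shares of tRNA-Pro 38 (-0.43 to 1.98) and tRNA-Pro 35 (-1.58 to 0.54), neither of which passed, changed sign. The percentage of the table's counts, the grouping by CCA end and the common start were added after seeing the data. Low raw counts in CD, down to 1 for tRNA-Pro 24 and 2 for tRNA-Pro 21, limit the fold changes of the short members. The same holds for tRNA-Pro 37 and tRNA-Pro 38, with CD raw counts down to 2 and 4.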

Other observations

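The tRNA-Pro tRFs made up 2.99%, 2.21%, 2.31% and 1.64% of the table's raw counts in LP 1 to LP 4, against 0.246%, 0.304%, 0.780%, 0.332% and 0.336% in CD 1 to CD 5. Both parts of that share were selected as changed, so it describes the table and not the libraries.

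tRNA-Ala-AGC 39b, a CCA-ended fragment of an alanine tRNA, was the only other tRF of the table to open with the same 10 bases as tRNA-Pro 39, and it has the same length of 39 nt, with 27 identical positions. Both sequences are shown for that common start, which capitals mark.
tRNA-Pro 39: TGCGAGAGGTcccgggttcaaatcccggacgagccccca
tRNA-Ala-AGC 39b: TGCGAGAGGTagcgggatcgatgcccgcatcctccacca

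tRNA-Ala-AGC 39b averaged 122 ± 30.7 normalized read counts in LP islets (SD, n = 4) and 47.3 ± 11.7 in CD islets (SD, n = 5), a log2 fold change of 1.36, against 1.47 for tRNA-Pro 39. The pair was noticed in the data and no test was made of it.

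None of the 1143 mature and hairpin miRNA sequences of the rat in RefSeq (GRCr8) shared a run of 12 bases with tRNA-Pro 39. The same annotation lists 92 tRNA genes named Trnap-agg, 4 named Trnap-cgg and 8 named Trnap-ugg, and the tRFs do not show which of them were their source. It also lists 11 named Trnap-ggg, an anticodon that is not among the 3 hosts.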
